A study of Mus musculus with 447 samples.

Results

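Neurog3 (also called Ngn3) and 8 further genes that mark or accompany the endocrine progenitor stage of the fetal pancreas were followed through single cells: Btbd17, Mfng, Hes6, Gadd45a, Amotl2, Sox4, Cdkn1a and Neurod2. They are 9 of the 40824 genes in the count matrices, were given by name and not picked by a threshold, and all 9 were found. Each was described as CPM (counts per 1000000 reads) and as the share of cells that held it, by genotype, by set and by cell state, and then by joint presence in the same cell. A cell was called Gcg-high when glucagon (Gcg) reached 1000 CPM, Cpa1-high when the acinar enzyme carboxypeptidase A1 (Cpa1) did, and "neither" otherwise.

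The RNA came from GFP-positive cells sorted from the pancreas of mouse fetuses at E15.5 and was measured by Smart-seq3, a plate method that sequences full-length polyadenylated RNA of each well. The cells labelled Pdx1CreNeurod1OE, here Neurod1OE, overexpressed Neurod1 under a Pdx1-driven Cre, which the design text writes as the inducible CreER. Those labelled Pdx1CreNgn3KONeurod1OE, here "labelled Ngn3KO", carried the same Cre and the same Neurod1 overexpression plus floxed Ngn3. By label, added Neurod1 is thus common to both genotypes. Whether each cell overexpressed it was not tested. Titles divide the 212 Neurod1OE and 235 Ngn3KO-labelled cells into set 3, with 95 and 30 of them, and set 2, with the rest; no source used here says what the set number means. No animal or litter is named, so each genotype was 1 sample per set, no test between genotypes was made, and every interval is a 95% interval for counting error only. Pdx1 is active across the early pancreatic epithelium, including the precursors of acinar cells, and wild-type cells were not analysed here.

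Neurog3 is a basic helix-loop-helix (bHLH) transcription factor that appears briefly in the duct-like trunk epithelium and starts endocrine differentiation. Notch signalling between neighbouring cells holds it down through Hes1, while cells with high Neurog3 leave the cell cycle, switch on factors such as Neurod1, Pax4 and Insm1, and lose Neurog3 again before hormones accumulate. bHLH factors bind DNA at E-boxes, written CANNTG.

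The sequences just upstream of Neurog3 itself, of its bHLH relative Neurod2, of its Notch-linked companion Hes6 and of Btbd17 are shown as examples. They are the bases before the RefSeq start (assembly GRCm38.p6, the same as mm10), read 5′ to 3′ on the gene's strand and cut where the GENCODE gene begins, and capitals mark CANNTG.
Neurog3, chr10:62132840-62133089, plus strand: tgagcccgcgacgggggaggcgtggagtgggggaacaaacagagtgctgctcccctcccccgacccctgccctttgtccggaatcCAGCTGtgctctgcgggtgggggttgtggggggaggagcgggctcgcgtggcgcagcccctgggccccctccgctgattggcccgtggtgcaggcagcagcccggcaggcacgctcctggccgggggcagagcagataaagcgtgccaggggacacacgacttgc
Neurod2, chr11:98329649-98329895, minus strand: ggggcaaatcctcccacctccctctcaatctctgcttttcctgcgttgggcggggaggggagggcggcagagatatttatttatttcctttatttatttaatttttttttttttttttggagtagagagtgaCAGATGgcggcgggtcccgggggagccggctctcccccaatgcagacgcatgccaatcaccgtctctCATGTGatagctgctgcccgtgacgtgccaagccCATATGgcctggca
Hes6, chr1:91414039-91414288, minus strand: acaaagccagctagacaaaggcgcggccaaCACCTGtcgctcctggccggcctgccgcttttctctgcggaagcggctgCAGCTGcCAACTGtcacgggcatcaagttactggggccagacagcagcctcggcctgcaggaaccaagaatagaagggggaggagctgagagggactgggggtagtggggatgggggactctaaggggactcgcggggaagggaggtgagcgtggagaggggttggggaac
Btbd17, chr11:114795946-114796142, minus strand: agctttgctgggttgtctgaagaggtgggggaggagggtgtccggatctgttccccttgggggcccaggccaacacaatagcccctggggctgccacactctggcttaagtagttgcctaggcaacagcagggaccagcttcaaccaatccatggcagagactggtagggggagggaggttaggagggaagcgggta
Of the 9 genes, 8 were in the RefSeq promoter table, and Mfng was not. The E-box CANNTG was searched on both strands in windows of 250 bases, of which 66.2% of 32851 mouse promoters held at least 1 match. Neurog3 had 1 match, Neurod2 had 3, the Hes6 window shown had 3 and Btbd17 had 0. Hes6 has another RefSeq start, whose window (chr1:91413223-91413472) lies inside the gene, held 1 match and is not printed. CAGATG, a special case of CANNTG, was present in 14.4% of all promoters and here in that of Neurod2 alone among the 4. These matches describe letters, not binding sites, and the absence of a match says only that the letters are not in the window.

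The deposited cells held 25769 to 2788066 reads, with group medians of 344128 to 728074. The states were distributed very unevenly. Set 2 was almost wholly Gcg-high, with 96.6% of its Neurod1OE cells and 98.5% of its cells labelled Ngn3KO. In set 3 the Neurod1OE cells comprised 32 Gcg-high, 16 Cpa1-high and 48 neither, whereas 29 of the 30 cells labelled Ngn3KO were Cpa1-high, 1 was Gcg-high and 0 were neither. Within set 3 the genotypes can therefore be compared within 1 state only, the Cpa1-high cells. Over all 447 cells, 4 passed both limits and were counted in both states. The sets also differed in sex by Xist and Y-linked genes: set 3 held 29 female and 66 male Neurod1OE cells but 30 male cells labelled Ngn3KO, and set 2 held 64 female and 50 male Neurod1OE cells but 0 male and 8 uncalled cells labelled Ngn3KO, the others being female. The predicted gene Gm12338 split set 2 into cells below 10 CPM (66 Neurod1OE, 97 labelled Ngn3KO) and the others, at 10 CPM or more, here Gm12338-low and Gm12338-high. The 3 summed marker lists of endothelial, immune and red blood cells reached at most 37.7 CPM in any group or state with 10 or more cells. Mesenchyme markers reached more, with 990.96 CPM in Cpa1-high cells labelled Ngn3KO of set 3, where the highest cell had 17406 CPM. In Neurod1OE cells of set 3 with neither they summed to 262.9 CPM (highest cell 3767 CPM). Neural or Schwann markers summed to 129.2 CPM in the latter cells (highest cell 2492 CPM). The part of such cells in the members' levels was not tested. All 13 pan-endocrine markers stood at 50 CPM or more in the Gcg-high cells of set 2 and, among Neurod1OE cells of set 3, in the Gcg-high cells and those with neither.

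The genes separated the cell states of set 3 more than they separated the genotypes of set 2. In set 3, Neurog3, Btbd17, Hes6, Amotl2, Sox4, Cdkn1a and Neurod2, 7 of the 9, were at least 2-fold higher in the 48 Neurod1OE cells with neither than in the 32 Gcg-high ones, and 0 were lower. Of all 10845 genes measured there (at least 10 CPM and a read in at least 10% of cells on 1 side), 19.1% were that much higher and 12.2% lower. Neurog3 (5.48 CPM), Amotl2 (9.20), Sox4 (9.93) and Neurod2 (0) were under 10 CPM in the Gcg-high cells. These members were thus measured only through the cells with neither, where they were high. The members' median log2 ratio was 1.71 against 0.17 for all measured genes, and it is the same with Neurod2 set at its bound, since that gene lies above the median either way. The same cells had all 10 cycling genes of a fixed list at least 2-fold higher (median 3.90) and summed duct and trunk markers of 2903 CPM against 1182 CPM. The part of cycling or trunk-like cells in the members' levels was not tested.

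Between genotypes in set 2, 1 of 9 members (Amotl2) was at least 2-fold lower in the cells labelled Ngn3KO and 0 were higher, where 1.67% and 0.859% of 10010 measured genes were called. Neurog3, the gene deleted by label, was itself within 2-fold there, at 3.89 and 3.06 CPM. Both values are under the limit for a measured gene, so its level cannot check the labels of set 2. In set 3, 5 members (Neurog3, Btbd17, Mfng, Gadd45a and Neurod2) were at least 2-fold lower in the cells labelled Ngn3KO and 1 (Cdkn1a) was higher, against 31.8% lower and 5.96% higher among 10478 measured genes. The median of the 8 measured members, of which 4 were lower, was -1.13, and that of all measured genes was -0.57. Over all 9 members, with Neurod2 at under 10 CPM on both sides, the median was -1.93. That shift depends on scaling: with the trimmed mean of M values (TMM) the median of all genes was -0.06, 18.4% were lower and 13.1% higher, and the members counted 5 lower and 2 higher, Sox4 joining Cdkn1a. Genotype and state cannot be told apart in this comparison, since summed acinar markers were 44279 CPM in the cells labelled Ngn3KO and 4672 CPM in Neurod1OE cells.

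Among Cpa1-high cells (16 Neurod1OE, 29 labelled Ngn3KO), 2 members, Btbd17 and Mfng, were at least 2-fold lower and 1, Neurog3, higher, with 18.7% and 4.15% of 9660 measured genes called; Neurog3 did not reach the limits for a measured gene. The cells were still unlike: acinar markers summed to 45885 CPM in the cells labelled Ngn3KO and 17555 CPM in Neurod1OE cells, pan-endocrine markers to 684 and 3583 CPM with 10 of 13 lower (median -2.62), and all 5 measured mesenchyme markers were higher. Their part in the members' levels was not tested. Of the Neurod1OE cells 1 was also Gcg-high and held 98.9% of the Gcg reads. Without it, an alternative chosen after seeing the data, Btbd17 (9.91 and 3.85 CPM, log2 ratio -1.17) and Mfng (16.9 and 3.62 CPM, -1.96) were still at least 2-fold lower, though Btbd17 was then under the limit for a measured gene, and 9 of 12 pan-endocrine markers were lower. Among Gcg-high cells of set 2 the count was again Amotl2 lower and 0 higher, beside 1.72% and 0.838% of 10022 genes.

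**Figure D1:**
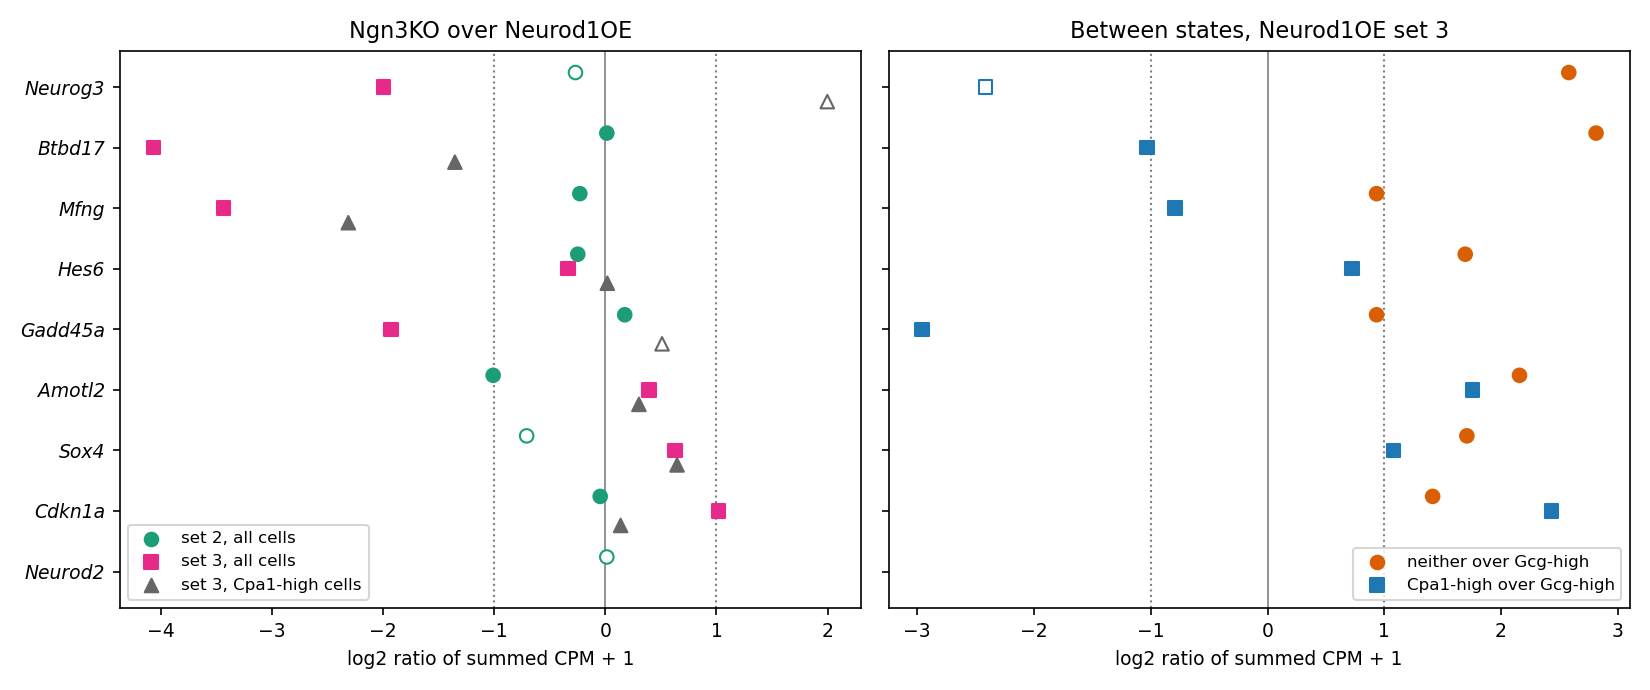
Log2 ratios of summed CPM + 1 (horizontal axis) for the member genes (vertical axis). Left, cells labelled Ngn3KO over Neurod1OE cells in set 2, in set 3 and in the Cpa1-high cells of set 3. Right, cells with neither and Cpa1-high cells over Gcg-high cells of Neurod1OE set 3, which share their Gcg-high cells. Filled symbols are genes that reached 10 CPM and 10% of cells, open symbols genes that did not, and dotted lines mark 2-fold. Neurod2 is left out wherever a group had 3 reads or fewer. The set 2 values lie between -1.01 and 0.17, and all values for neither over Gcg-high lie at 0.93 or more.

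Compared per kilobase of exon, Hes6 and Cdkn1a were the most abundant members in every group and Neurod2 the least. In Neurod1OE set 3 the order was Hes6 (112.4 CPM per kb), Cdkn1a (104.99), Btbd17 (26.9), Mfng (17.1), Gadd45a (14.97), Neurog3 (10.6), Sox4 (4.95), Amotl2 (4.88) and Neurod2 (1.81). Sox4 and Amotl2, neighbours in that order, are closer than their counting intervals separate. Btbd17 stood above Mfng there, whereas in set 2 Mfng (18.4 CPM per kb in Neurod1OE, 15.7 in cells labelled Ngn3KO) stood above Btbd17 (6.51 and 6.58). In the cells labelled Ngn3KO of set 3, Cdkn1a led with 213 CPM per kb, ahead of Hes6 at 88.9, and Mfng and Btbd17 stood at 1.26 and 1.31.

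**Figure D2:**
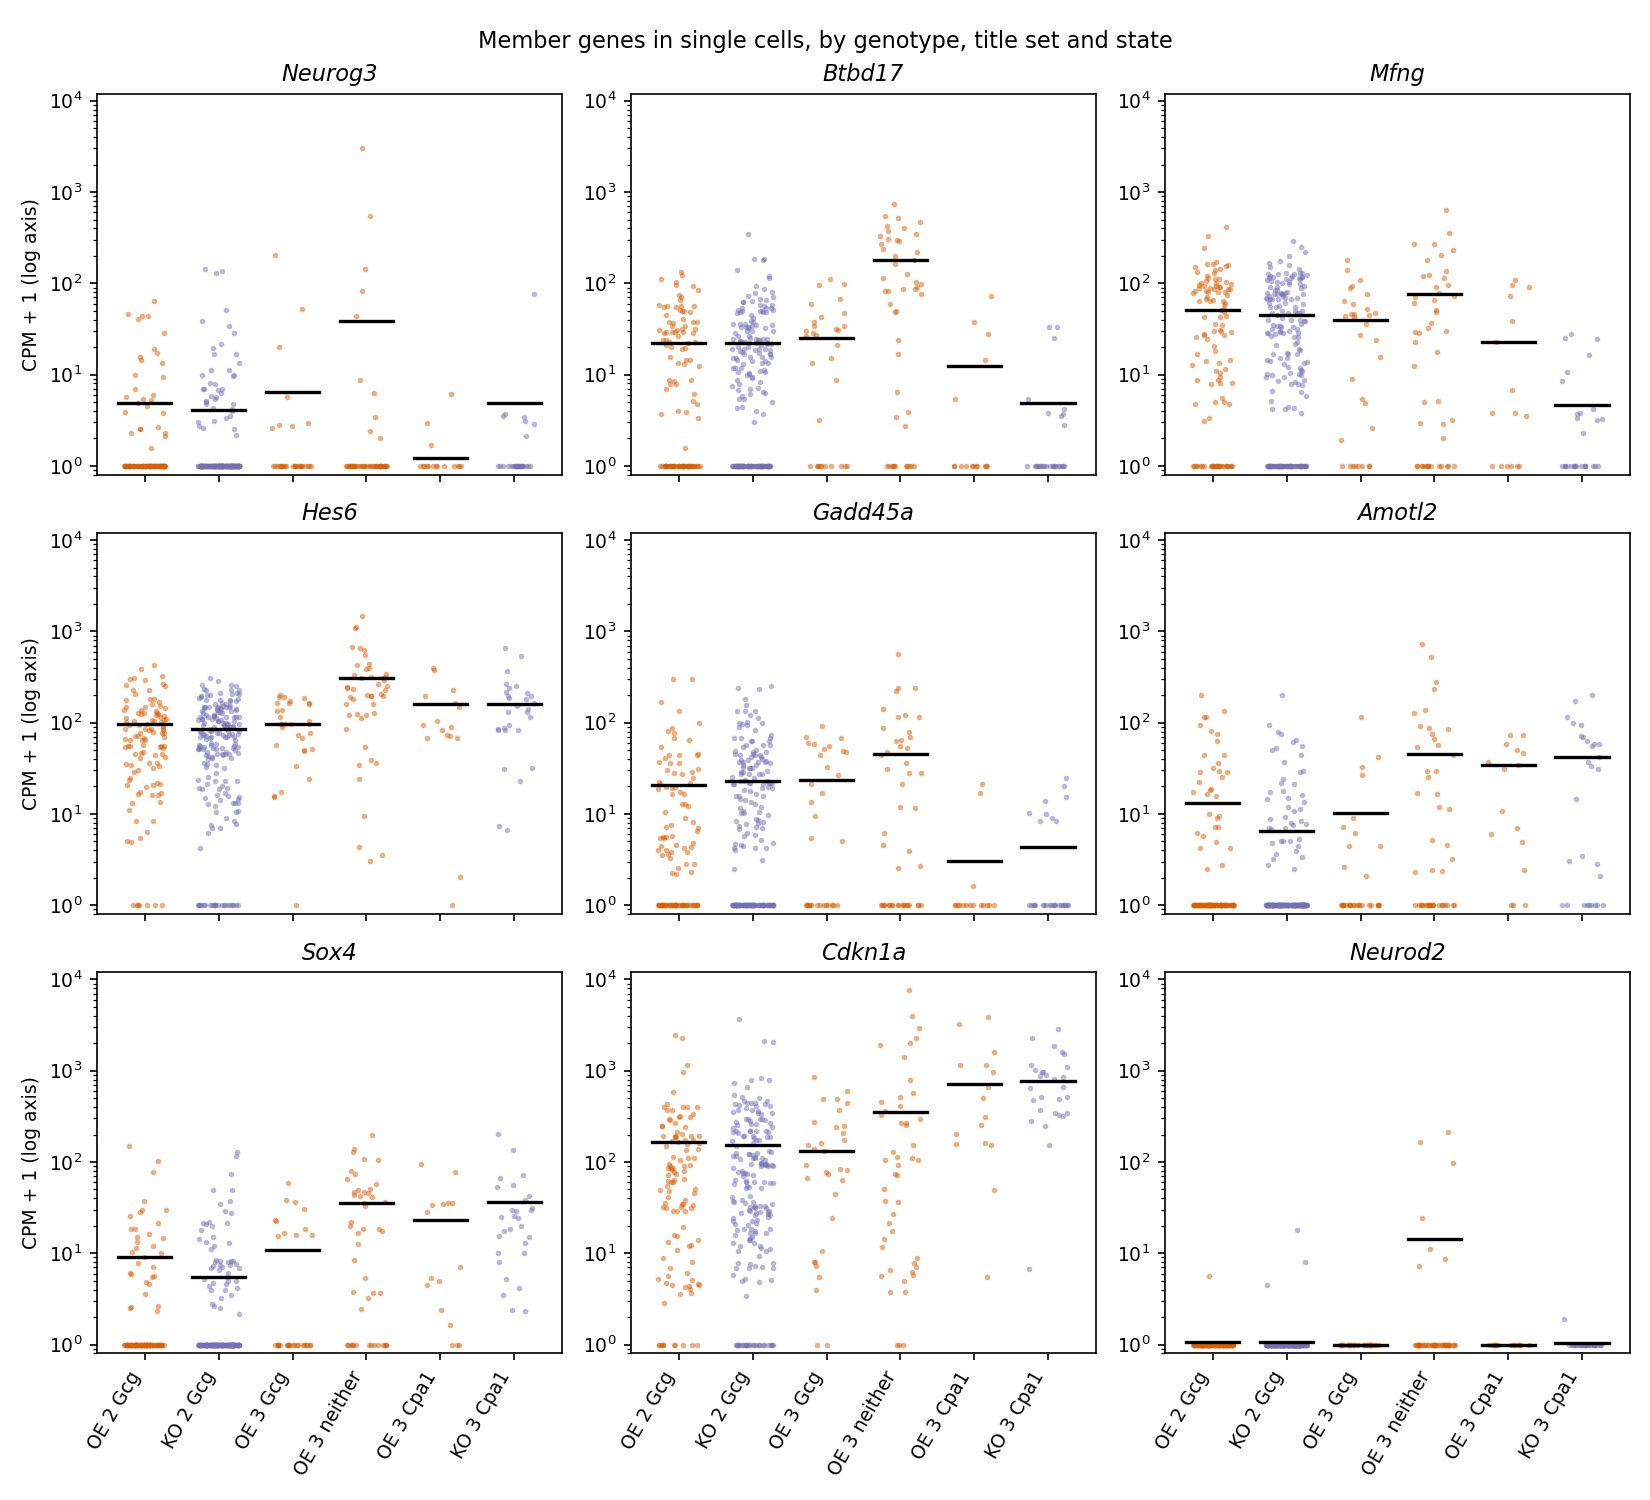
CPM + 1 of each member in single cells (log axis), 1 panel per gene, in the 6 combinations of genotype, set and state with at least 10 cells. Orange points are Neurod1OE cells, purple points cells labelled Ngn3KO, and the black bar is the summed CPM + 1 of the cells. Neurog3 lies at 0 CPM in most cells of each column, with 7 cells above 100 CPM in 3 of the columns, Btbd17 is highest in cells with neither, and Cdkn1a is highest in Cpa1-high cells.

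Neurog3, the trigger of the endocrine programme (chr10:62133090-62134763, plus strand, mm10; 16.3% of its exon length overlaps Fam241b on the opposite strand), was rare in every group. A Neurog3 read was found in 32 and 20 Neurod1OE cells of sets 2 and 3 and in 43 and 7 cells labelled Ngn3KO. Over all 447 cells, 34 reached 10 CPM and 7 reached 100 CPM. In set 2 the median cell had 0 CPM in both genotypes, the highest had 62.8 CPM in Neurod1OE and 142.7 CPM in cells labelled Ngn3KO. Summed, Neurog3 had 3.89 CPM (3.46 to 4.36) and 3.06 CPM (2.69 to 3.47), a log2 ratio of -0.27, and the cells of the genotypes overlapped from 0 to 62.8 CPM, with 3 cells labelled Ngn3KO above that. Among Gcg-high cells of set 2 a read was present in 25.7% of Neurod1OE cells and 20.8% of cells labelled Ngn3KO, and in 16.96% and 18.1% after thinning each cell to 165298 reads. Reads per gene do not show where on Neurog3 they lie, and no source used here gives the floxed part, so a read in a cell labelled Ngn3KO does not tell an intact gene from a remnant transcript.

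In set 3 the Neurod1OE cells summed to 17.8 CPM of Neurog3 (16.9 to 18.8) and the cells labelled Ngn3KO to 3.72 CPM (2.96 to 4.61), a log2 ratio of -2.00. Single cells made these sums: cell 48 of Neurod1OE, at 3053 CPM, held 69.9% of the reads, and 1 cell labelled Ngn3KO, at 76.1 CPM, held 89.02%. Without them the sums were 5.39 and 0.43 CPM and the log2 ratio was -2.16. By state, Neurod1OE cells with neither summed to 37.8 CPM, Gcg-high cells to 5.48 CPM and Cpa1-high cells to 0.215 CPM on 4 reads. The log2 ratio of neither over Gcg-high was 2.58 and dropped to 1.20 without each side's top cell. The shares of cells at 10 CPM did not follow the sums: 10.4% (3.47 to 22.7) with neither and 9.38% (1.98 to 25.02) of Gcg-high cells, so the higher sum lay in a few cells with much Neurog3. In Cpa1-high cells the ratio was 2.00 the other way, 3.85 CPM on 82 reads in cells labelled Ngn3KO, and 0.37 without the top cells.

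The cells richest in Neurog3 were not alike. Cell 48 of Neurod1OE set 3 had neither hormone nor acinar enzyme at the limit, with 846 CPM of Pax4, 577 CPM of Sox9 (a trunk factor), 674 CPM of Hes6 and 287 CPM of Btbd17, but 13.8 CPM of Neurod1 and 0 CPM of Cdkn1a. Cell 8 of the same group, at 543 CPM of Neurog3, had 632 CPM of Sox9, 785 CPM of Insm1 and 165.3 CPM of Neurod1, and 2911 CPM of Cdkn1a. Both thus held Sox9 beside Neurog3, and they differed in Pax4 and Cdkn1a. The next was a Gcg-high cell, cell 36 of the same group, with 203.8 CPM of Neurog3 and 16677 CPM of ghrelin (Ghrl). Of the 7 cells at 100 CPM or more, 4 were Neurod1OE cells of set 3 and 3 were cells labelled Ngn3KO of set 2, all 3 Gcg-high, at 128.9 to 142.7 CPM.

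Btbd17, a BTB-domain gene found with Neurog3 in endocrine progenitors (chr11:114791217-114795945, minus strand), differed in sum between all 3 states. In Neurod1OE set 3 its lowest, median and highest values were 0, 85.8 and 740 CPM in cells with neither, 0, 22.99 and 111.2 CPM in Gcg-high cells, and 0, 0 and 72.6 CPM in Cpa1-high cells. The sums were 177.4 CPM (172.7 to 182.2), 24.4 CPM (22.4 to 26.4) and 11.4 CPM (9.92 to 13.04), a log2 ratio of 2.81 for neither over Gcg-high. The ranges of all 3 states overlapped from 0 to 72.6 CPM, and 68.8%, 59.4% and 25% of these cells reached 10 CPM. Cells with neither thus differed from Gcg-high cells more in amount than in the share of cells at 10 CPM. Of the 10 cells highest in Btbd17, at 326 to 740 CPM, 9 were Neurod1OE cells with neither, 7 held Sox9 at 50 CPM or more, all 10 held Hes6 at that level, and 2 held Neurog3 at 10 CPM.

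Between genotypes in set 2 Btbd17 lay within counting error: 20.8 CPM (19.7 to 21.8) for Neurod1OE against 20.97 CPM for cells labelled Ngn3KO, with 47.01% and 48.8% of cells at 10 CPM. In set 3 it was 85.6 and 4.17 CPM, a log2 ratio of -4.07, and in Cpa1-high cells 11.4 and 3.85 CPM, a log2 ratio of -1.35. Within the Cpa1-high cells 4 of 16 and 3 of 29 reached 10 CPM, with shares of 25% (7.27 to 52.4) and 10.3% (2.19 to 27.4) whose intervals overlap.

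A further division within the 48 cells with neither was made after the values were seen, by the secreted trunk protein osteopontin (Spp1) at 1000 CPM. The 11 cells above it had 341 CPM of Btbd17 and the 37 below it 105.4 CPM, with 10 of 11 and 23 of 37 cells at 10 CPM. Of the 10 cells highest in Btbd17, 5 held Spp1 at that limit, so the choice of Spp1 is not independent of Btbd17. Sox4 went the same way, at 50.6 and 27.7 CPM, as did Mfng (101.6 and 63.1 CPM) and Gadd45a (56.2 and 38.9 CPM). Cdkn1a differed little, at 360 and 343 CPM. Hes6 went the other way, at 227 and 347 CPM, and all 403 Neurod2 reads lay in the 37 cells with less Spp1. Amotl2 also went the other way in sum, at 21.8 and 54.6 CPM, though 6 of 11 and 15 of 37 cells reached 10 CPM. Neurog3 stood at 13.3 and 48.5 CPM, but 1 cell held 94.3% of its reads in the former and 1 cell 87.3% in the latter.

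Mfng, a fringe glycosyltransferase that modifies Notch receptors (chr15:78755882-78773475, minus strand), was present in most Gcg-high cells. Its median cell in set 2 had 29.7 CPM in Neurod1OE and 20.03 CPM in cells labelled Ngn3KO, the highest 413 and 288 CPM, and the sums were 52.3 and 44.5 CPM (log2 ratio -0.23). In Neurod1OE set 3 it was 74.9 CPM in cells with neither, 38.7 CPM in Gcg-high cells and 21.9 CPM in Cpa1-high cells, with 58.3%, 59.4% and 37.5% of cells at 10 CPM. It thus stayed just inside 2-fold between the first pair of states, at a log2 ratio of 0.93. Cells labelled Ngn3KO of set 3 had 3.58 CPM, a log2 ratio of -3.44. In Cpa1-high cells Mfng was 21.9 and 3.62 CPM, a log2 ratio of -2.31, and 37.5% (15.2 to 64.6) and 13.8% (3.89 to 31.7) of cells reached 10 CPM.

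Hes6, a Hes family member that opposes Hes1 and favours neurogenic and endocrine differentiation (chr1:91411483-91414038, minus strand), was the most widely present member. It reached 10 CPM in 88.03% and 82.9% of the cells of set 2, at 99.3 and 83.5 CPM (log2 ratio -0.25). In Neurod1OE set 3 the lowest, median and highest values were 2.04, 215 and 1482 CPM in cells with neither and 0, 95.9 and 197.97 CPM in Gcg-high cells, and the sums of 310 and 95.2 CPM gave a log2 ratio of 1.69. Cpa1-high cells had 158.03 CPM in Neurod1OE and 160 CPM in cells labelled Ngn3KO (log2 ratio 0.02), so Hes6 was as high in acinar-enzyme cells of either label, unlike its partner in Notch control Mfng. Over all cells of set 3 its log2 ratio was -0.34, and 0.15 with TMM scaling.

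Neurod2, a bHLH factor akin to Neurod1 and better known from neurons (chr11:98325415-98329648, minus strand), had reads in 12 cells. Of these 7 were Neurod1OE cells of set 3 with neither, which held 403 reads, while the Gcg-high and the Cpa1-high cells of that group held 0 reads. Against a floor of 3 counts over the group, Neurod2 was at least 104.4-fold higher than in Gcg-high cells and at least 83.1-fold higher than in Cpa1-high cells. It stood at 211 CPM in cell 14, 164.1 CPM in cell 61, 95.5 CPM in cell 53, 23.4 CPM in cell 51 and 10.0 CPM in cell 34, and cell 61 held 58.6% of the reads. Cells 14 and 61 shared Pax4 (742 and 744 CPM) and chromogranin A (Chga, 2769 and 2655 CPM), whereas cell 51 had 1412 CPM of the cycling marker Mki67. In the other groups Neurod2 had 4 reads in Neurod1OE set 2 and 5 and 1 reads in cells labelled Ngn3KO of sets 2 and 3. The ratio of Neurod1OE to Ngn3KO-labelled cells in set 3 was 125.3-fold, with a counting interval of 22.4 to 4961.

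**Figure D3:**
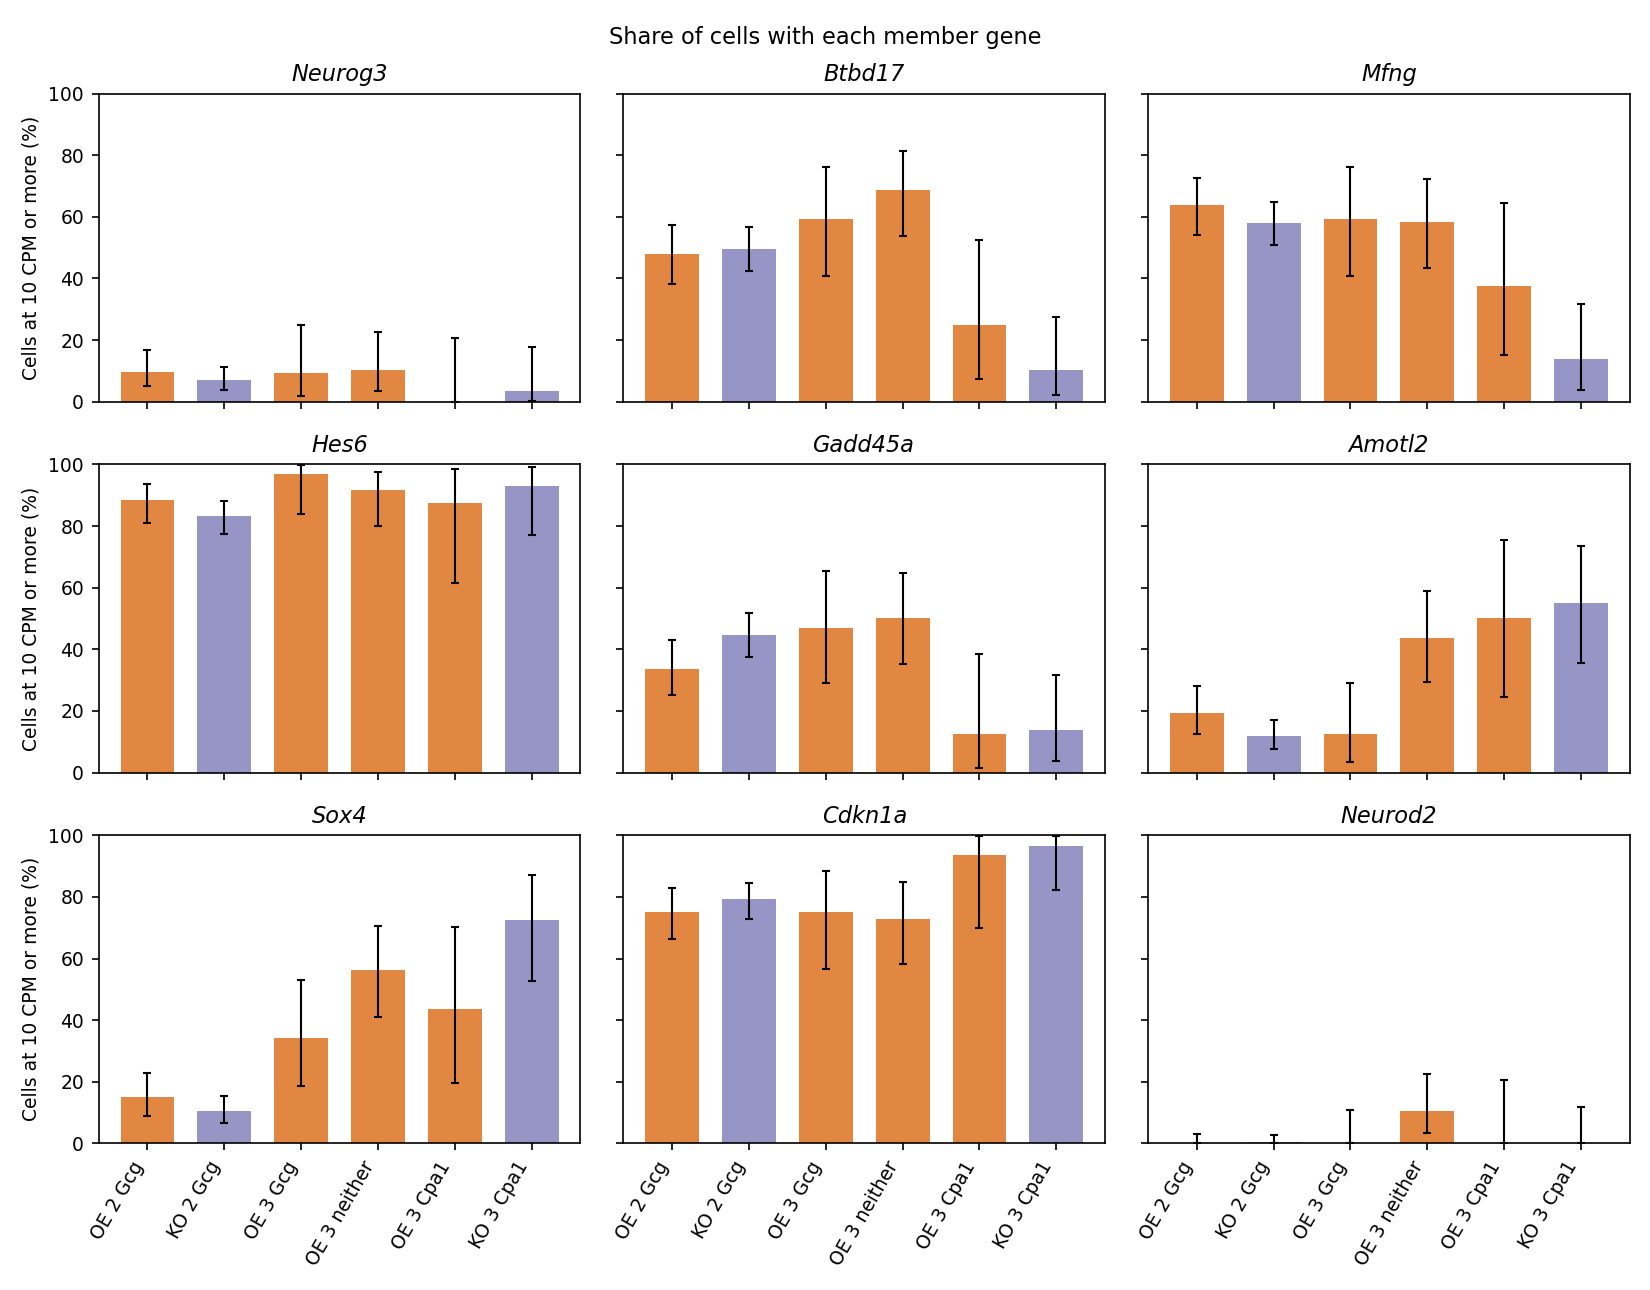
Share of cells (%) with each member at 10 CPM or more in the 6 combinations of genotype, set and state with at least 10 cells. Bars are shares, lines are 95% Clopper-Pearson intervals, orange is Neurod1OE and purple is cells labelled Ngn3KO. Hes6 and Cdkn1a exceed 70% in every column, Neurog3 stays at 10.4% or less, and Gadd45a and Btbd17 are lowest in the Cpa1-high columns.

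Gadd45a, a growth arrest and DNA damage inducible gene (chr6:67035096-67037457, minus strand; 19.1% of its exon length overlaps the antisense gene E230016M11Rik), followed the endocrine side. In Neurod1OE set 3 it was 44.2 CPM with neither, 22.6 CPM in Gcg-high and 2.04 CPM in Cpa1-high cells, and 50%, 46.9% and 12.5% of cells reached 10 CPM. Cpa1-high cells were lower than Gcg-high cells by a log2 ratio of -2.96, with 24% of 10670 measured genes lower and 18.3% higher in that comparison. Set 2 gave 19.9 CPM in Neurod1OE and 22.6 CPM in cells labelled Ngn3KO (log2 ratio 0.17). In set 3 the sums were 26.4 and 6.21 CPM (log2 ratio -1.93), but among Cpa1-high cells 2.04 CPM (1.45 to 2.80) and 3.34 CPM (2.60 to 4.21), on 38 and 71 reads. That log2 ratio of 0.51 has overlapping counting intervals, was 1.14 without the cell that was also Gcg-high, and Gadd45a was not a measured gene there.

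Cdkn1a, which encodes the cyclin-dependent kinase inhibitor p21 (chr17:29090976-29100727, plus strand), went opposite to Gadd45a between Cpa1-high and Gcg-high cells, although both are textbook p53 targets, and both were higher in sum with neither than in Gcg-high cells. Its lowest, median and highest values in Neurod1OE set 3 were 4.56, 405 and 3854 CPM in Cpa1-high cells, 0, 87.3 and 844 CPM in Gcg-high cells and 0, 97.5 and 7627 CPM in cells with neither. The sums were 706, 130 and 348 CPM, log2 ratios over Gcg-high cells of 2.43 for Cpa1-high cells and 1.41 for cells with neither, the latter 0.72 within Gm12338-high cells. Cpa1-high cells labelled Ngn3KO had 777 CPM (log2 ratio 0.14), and 93.8% and 96.6% of the Cpa1-high cells reached 10 CPM. The whole-set log2 ratio of 1.02 in set 3 (373 and 756 CPM) fell inside 2-fold with each cell weighted equally (0.71) or leaving out the deepest 2% of cells (0.96). Set 2 showed 166.99 and 161.7 CPM (log2 ratio -0.05).

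Amotl2, an angiomotin-like junction protein that binds the co-activator YAP (chr9:102716672-102733418, plus strand), was shared by acinar-enzyme cells and cells with neither. It was 44.6 CPM with neither, 33.4 CPM in Cpa1-high and 9.20 CPM in Gcg-high cells of Neurod1OE set 3, and 43.8%, 50% and 12.5% of cells reached 10 CPM. In set 2 the Neurod1OE cells had 11.8 CPM (11.04 to 12.6), against 5.36 CPM (4.86 to 5.89) in cells labelled Ngn3KO, with 18.8% and 11.7% of cells at 10 CPM. This log2 ratio of -1.01 is the only call among the members in set 2 and was inside 2-fold with TMM scaling (-0.95), with equal cell weights (-0.88) and in Gm12338-high cells (-0.29). The cause of its dependence on these choices was not tested. In set 3 the sums were 30.7 and 40.5 CPM (log2 ratio 0.39).

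Sox4, a SoxC transcription factor needed for normal endocrine differentiation (chr13:28948919-28953713, minus strand), is uncertain in level because 54.6% of its exon length overlaps the antisense gene Gm26735 and no source used here gives the strand setting of the counting. It was 34.7 CPM with neither, 22.1 CPM in Cpa1-high and 9.93 CPM in Gcg-high cells of Neurod1OE set 3, with 56.2%, 43.8% and 34.4% of cells at 10 CPM. Cpa1-high cells labelled Ngn3KO had 35.1 CPM and 72.4% of cells at 10 CPM (log2 ratio 0.65). Set 2 gave sums of 8.01 CPM for Neurod1OE and 4.52 CPM for cells labelled Ngn3KO (log2 ratio -0.71). Over set 3 the log2 ratio was 0.63, and 1.10 with TMM scaling, past 2-fold.

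Across the states of Neurod1OE set 3, 8 of the 9 members had their highest sum in cells with neither, and Cdkn1a had it in Cpa1-high cells. For Amotl2 that order rested on the cells richest in it. Without each side's top cell, its log2 ratio over Gcg-high cells was 2.50 with neither and 2.55 in Cpa1-high cells. Cdkn1a, Amotl2 and Sox4 were at least 2-fold higher in Cpa1-high than in Gcg-high cells. Gadd45a, Btbd17 and Neurog3 were at least 2-fold lower there. Of the 7 measured members 3 were thus higher and 2 lower, beside 18.3% and 24% of 10670 measured genes. Neurog3, with 4 reads in the Cpa1-high cells, was not measured in that comparison, which shares its Gcg-high cells with the comparison of cells with neither.

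The wider pathways were read from fixed lists. Of 20 Neurog3 targets and partners, 17 were measured in set 2 with 0 past 2-fold (median log2 ratio 0.03, all genes -0.07). In set 3, 15 of 18 measured were lower and 0 higher in cells labelled Ngn3KO (median -2.73, with 31.8% of all genes lower), among them Fev at 110 and 2.08 CPM, Runx1t1 at 310 and 11.1 CPM and Pax6 at 327 and 11.8 CPM. Among Cpa1-high cells 8 of 16 were lower and 1 higher (median -0.80), where 18.7% of all genes were lower (median -0.35) and pan-endocrine markers had a median of -2.62. Between states the list moved little. In cells with neither, 2 of 19 were higher and 2 lower than in Gcg-high cells, beside 19.1% and 12.2% of all measured genes. Pax4, at 73.4 and 4.71 CPM, and Nhlh1 were higher, and Gfra3 was among the lower ones. Pax4, Nhlh1 and Gfra3 were named after their values were seen. Neurod1 itself was 217 CPM in Neurod1OE and 30.4 CPM in cells labelled Ngn3KO of set 3. In the Cpa1-high cells of that set it was 41.7 and 14.3 CPM.

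Of 22 Notch ligands, receptors and targets, 19 were measured between states of Neurod1OE set 3. Of these 11 were higher and 2 lower in cells with neither (median 1.33), beside 19.1% and 12.2% of all measured genes. Lfng, a second fringe enzyme, was 66.5 CPM with neither and 0.257 CPM in Gcg-high cells, Sox9 214 and 10.1 CPM, Hes1 54.2 and 7.79 CPM and the ligand Dll3 95.9 and 37.4 CPM, while Jag2 and Notch1 were lower. Lfng, Sox9, Jag2 and Notch1 were named after their values were seen. In set 2, 1 of 15 measured genes was past 2-fold, Hes1 at 21.3 CPM in Neurod1OE and 6.79 CPM in cells labelled Ngn3KO. Of all measured genes 1.67% were lower there. In set 3, 7 of 17 were lower, among them Mfng, Rfng and Dll3, and Jag1 was higher. The median of -0.62 is close to the -0.57 of all measured genes, of which 31.8% were lower, so the Notch list as a whole did not stand apart there. All 3 measured genes of the Hes family (Hes6, Hes1 and Heyl) were higher with neither, and 0 of 3 passed 2-fold between genotypes in set 3.

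Among 18 proneural bHLH genes and their partners, 8 of 13 measured were higher and 1 lower in cells with neither (median 1.94). Of all measured genes 19.1% were higher and 12.2% lower there. Id1, an inhibitor of bHLH factors, was 326 CPM with neither and 12.1 CPM in Gcg-high cells. In set 3, 6 of 10 were lower in cells labelled Ngn3KO, beside 31.8% of all measured genes. In set 2 Id1 alone of 7 was lower, beside 1.67%.

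Growth arrest genes went both ways. Of 10 measured in set 3, 4 were lower in cells labelled Ngn3KO (Gadd45a, Cdkn2d, Ccnd3 and Cdkn1b) and 3 higher (Cdkn1a, Cdkn1c and Gadd45b), beside 31.8% and 5.96% of all measured genes, and in set 2 none of 10 passed 2-fold. Cells with neither had 4 of 10 higher than Gcg-high cells and 0 lower, beside 19.1% and 12.2% of all measured genes. Of 20 p53 targets, 15 were measured in set 3, where 5 were lower, a share near the 31.8% of all genes. They included the sestrins Sesn2 (74.5 and 6.71 CPM) and Sesn1 (50.6 and 7.16 CPM), and Cdkn1a alone was higher. Between states 3 of 16 were higher with neither, near the 19.1% of all genes, and 5 were lower, beside 12.2% of all genes (median -0.12).

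The YAP and angiomotin list held 17 genes, 15 of them in the matrices. Between states 9 were measured, 6 higher and 0 lower in cells with neither (median 2.16), beside 19.1% and 12.2% of all measured genes. The YAP partner Tead2 stood at 185.97 and 3.12 CPM and Yap1 at 19.8 and 5.99 CPM. These genes and Amotl2 were under 10 CPM in Gcg-high cells, so they were measured only through the cells with neither. In set 2, 3 of the 5 measured were lower in cells labelled Ngn3KO: Amotl2, Yap1 (11.9 and 4.40 CPM) and Tead2 (20.7 and 6.74 CPM). Of all measured genes 1.67% were lower there, and these 3 were measured only through the Neurod1OE cells. In that set all 5 measured acinar markers were lower too (median -2.01), and their part in these values was not tested. Of the SoxC genes, Sox11 exceeded Sox4 in contrast between states, at 997 CPM with neither and 21.6 CPM in Gcg-high cells, and between labels in set 3, at 457 and 10.7 CPM. Among 5 BTB-domain genes Btbd17 alone was past 2-fold between states. Btbd17, Btbd3 and Btbd6 were lower in cells labelled Ngn3KO of set 3, where 31.8% of all measured genes were lower.

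Joint presence was examined at 10 CPM. The median cell held 3 of the 9 members in set 2 of either genotype, 4 in Neurod1OE set 3 (5 in its cells with neither) and 3.5 in cells labelled Ngn3KO of set 3, and no cell held more than 7. Neurog3 and Btbd17 were both present in 6 of 95 Neurod1OE cells of set 3, 6.32% (2.35 to 13.2), and in 5 cells of Neurod1OE set 2, 4.27% (1.40 to 9.69). In set 2 cells labelled Ngn3KO the pair occurred in 8 cells, 3.90% (1.70 to 7.54). Most Btbd17 cells thus lacked Neurog3 at this level: 49 of 55 in Neurod1OE set 3.

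Of the 34 cells with Neurog3 at 10 CPM, all 34 held Insm1, against 82.8% of the other 413 cells, and 32 held Hes6, against 86.4%. Btbd17 was in 19 (55.9%, 37.9 to 72.8) against 47.2%, and Mfng in 24 (70.6%, 52.5 to 84.9) against 54.7%. Gadd45a was in 16 against 39.2% of other cells and Cdkn1a in 29 against 78.2%. The cycling marker Mki67 was in 4 (11.8%, 3.30 to 27.5) against 25.4%, and the Notch target Hes1 in 4 against 22.8%. Except for Insm1, the intervals of these shares hold the share of the other cells. Rfx6, a further Neurog3 target, was in 32 (94.1%, 80.3 to 99.3) against 79.4%. Cells of all groups are pooled here, and their states and depths differ. Within each of the 4 groups the intervals for Insm1 and Rfx6 hold the share of that group's other cells, with only 1 such cell among those labelled Ngn3KO of set 3.

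**Figure D4:**
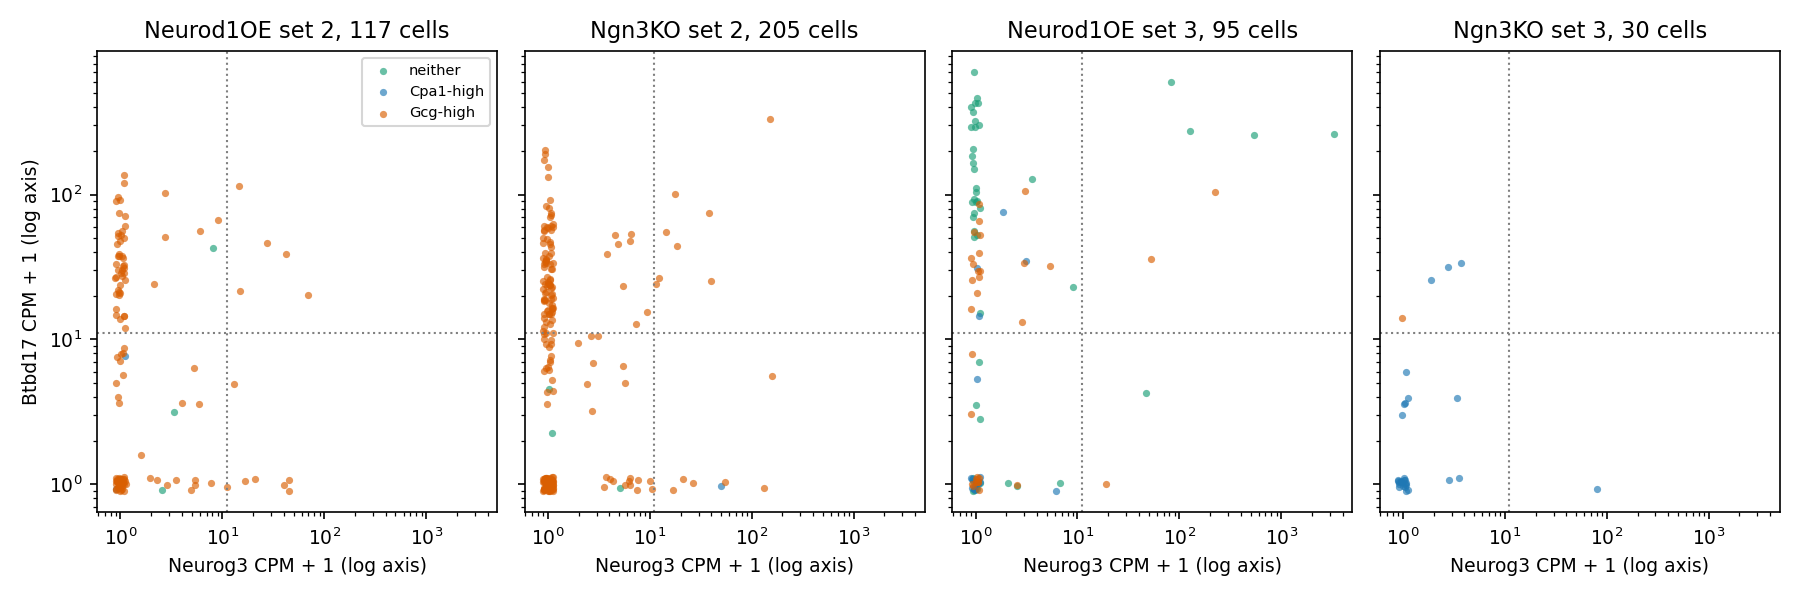
Btbd17 CPM + 1 against Neurog3 CPM + 1 (log axes) in single cells, 1 panel per genotype and set, coloured by state and moved slightly at random to part overlapping points. Dotted lines mark 10 CPM. The upper right field holds 5 Neurod1OE cells of set 2, 8 cells labelled Ngn3KO of set 2, 6 Neurod1OE cells of set 3 and 0 cells labelled Ngn3KO of set 3.

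Across the 95 Neurod1OE cells of set 3, Btbd17 ranked with Hes6 (Spearman's rho 0.47), Gadd45a (0.41) and Mfng (0.35), values that the mixture of states in this group shares. In the set 2 groups, nearly all Gcg-high, the same 3 pairs lay between -0.02 and 0.13. Over the 4 groups and 447 cells, the 5 genes of 11546 most like Neurog3 by mean rho were Pou6f1_1, Meis2, Nol4l, Gm1821 and Hhex, at 0.23 to 0.25. Those most like Btbd17 were Mfap4 (0.35), Actg1, Rab28, Loxl1 and 4833439L19Rik (0.26 to 0.27). In counts this sparse such values are weak, and the cells differ in depth. The titles name no plate, so the part of plates was not tested.

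Set 2 held a division that touched several members in the same direction in both genotypes. A Neurog3 read was found in 45.1% (31.1 to 59.7) of Gm12338-high and 13.6% (6.43 to 24.3) of Gm12338-low Neurod1OE cells, and in 33.3% (24.6 to 43.1) and 7.22% (2.95 to 14.3) of cells labelled Ngn3KO. At 10 CPM the division vanished, with 9.80% and 9.09% of Neurod1OE cells and 6.48% and 7.22% of cells labelled Ngn3KO. The difference thus lay in cells with a Neurog3 read at under 10 CPM. After thinning each cell to 165298 reads a read remained in 20.4% and 13.6% of Neurod1OE cells, and in 28.4% and 6.33% of cells labelled Ngn3KO. At equal depth the division was therefore much smaller in Neurod1OE cells. Sox4 followed, at 11.8 and 4.06 CPM in Neurod1OE and 7.09 and 1.25 CPM in cells labelled Ngn3KO. Btbd17 ran the other way, at 15.4 and 26.3 CPM in Neurod1OE and 14.2 and 29.5 CPM in cells labelled Ngn3KO, and so did Mfng, at 40.2 and 64.9 CPM and 33.5 and 58.4 CPM. Cdkn1a was higher in Gm12338-high cells, at 198.7 and 134.2 CPM and 193.8 and 120.9 CPM. Of the 51 Gm12338-high Neurod1OE cells of set 2, 50 were male and 0 female, whereas 0 of those labelled Ngn3KO were male. The part of sex, and what Gm12338 marks in these cells, was not tested.

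**Figure D5:**
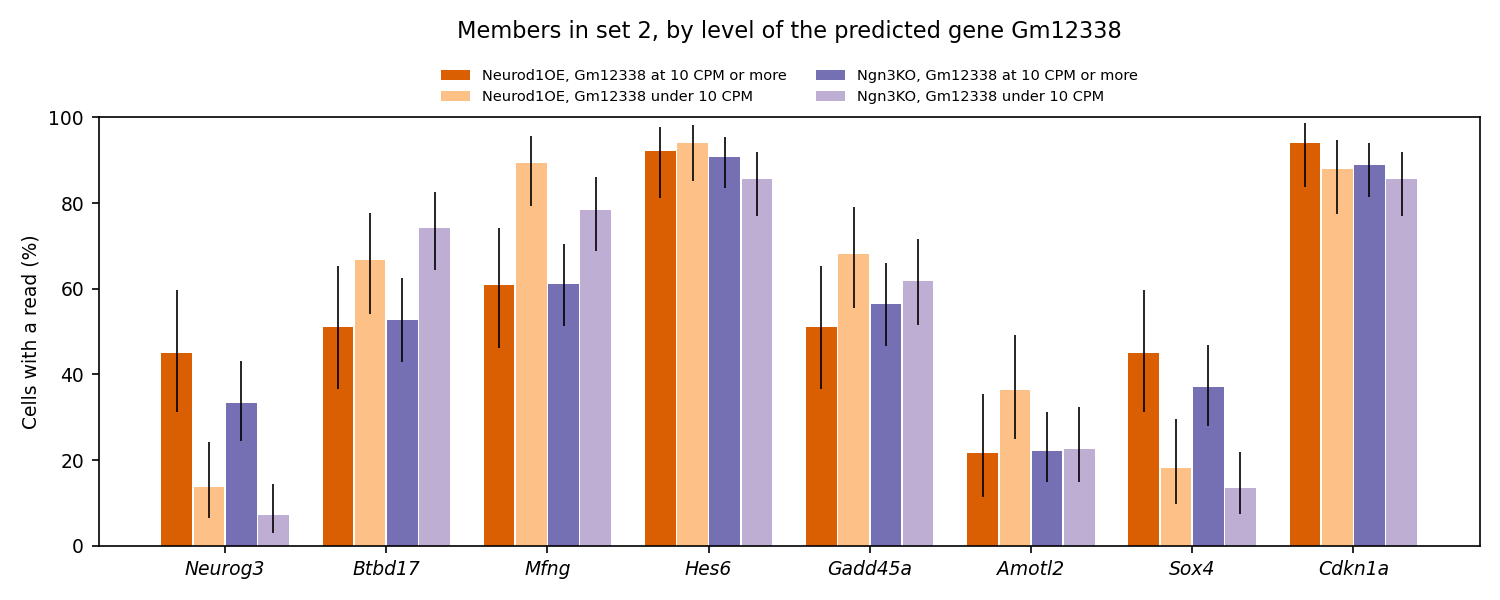
Share of cells (%) with at least 1 read of 8 members in set 2, Neurod2 left out, by genotype and by whether the predicted gene Gm12338 reached 10 CPM. Lines are 95% Clopper-Pearson intervals. Neurog3 and Sox4 are higher and Btbd17 and Mfng lower in Gm12338-high cells (dark bars) than in Gm12338-low cells (pale bars) of both genotypes.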

How the data were processed

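Smart-seq3 RNA of 447 single cells was deposited by the authors as raw read counts per gene in 2 sparse matrices, whole numbers without normalization. The submitters' processing notes name Trimmomatic 0.39, HISAT2 2.1.0, featureCounts 2.0.0 and mm10. The annotation, the strand setting and the use of molecule barcodes are not given in the sources used here. The 92 ERCC spike-in sequences were left out, and 36471 of the 40824 genes (89.3%) had a GENCODE symbol.

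Groups came from the genotype label and the title's set number (set 2: 117 Neurod1OE, 205 labelled Ngn3KO; set 3: 95 and 30), and all cells had at least 1000 genes. Each well held 1 sorted cell, so no doublet caller was run. Counts were summed over cells, scaled to CPM by the plain total and compared as log2 ratios after adding 1 CPM, within a set only. A gene was measured with at least 10 CPM and a read in 10% of cells on 1 side, and called at 2-fold. A gene below 10 CPM therefore passes only through the side where it is high. Deep cells weigh more in a sum, so equal weights were also tried. Sums have exact Poisson and shares exact Clopper-Pearson intervals (95%). Reads without molecule barcodes are not independent molecules, so intervals are too narrow. For equal depth, cells were thinned to 165298 reads, the 10th percentile of totals. Scaling by edgeR and DESeq2 factors, other pseudocounts and subsets of cells were alternatives. The ratio and correlation code was tested on simulated data.

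Named genes were the 9 members, Neurod1, Gcg and Cpa1, the 5 genes most like Neurog3 and Btbd17, and up to 4 measured genes per list with the largest ratio between genotypes. Genes outside this rule are marked in the text, or were named for a count of 5 or fewer or as markers of single cells after their values were seen. Values of some list genes are not reported here. Members and lists were chosen with earlier results of these data known. Python 3.11.15 (numpy 2.4.6, scipy 1.17.1, pandas 2.3.3, matplotlib 3.10.9) and R 4.3.3 (edgeR 4.0.16, DESeq2 1.42.0) were used.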

Additional observations from a re-analysis of the deposited data

How the results depend on the processing

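No paired analysis was possible because the numbers that the genotypes share in their titles are cell numbers. The single set 2 member at least 2-fold lower in cells labelled Ngn3KO (1, Amotl2) became 0 with TMM or DESeq2 scaling, equal cell weights, without each gene's top cells, without the 2% highest totals and in Gm12338-high cells, and 2 in Gm12338-low cells. In set 3 the 5 lower became 2 in Cpa1-high cells, and the 1 higher became 2 with TMM or DESeq2 scaling and 0 with equal weights or without the 2% highest totals. With Cpa1-high cells only, the set 3 log2 ratios turned to 2.00 for Neurog3, 0.51 for Gadd45a and 0.066 for Neurod2, the last on 0 and 1 reads. Without the Neurod1OE cell that was also Gcg-high they were 2.12, 1.14 and 0.066, with 2 members lower and 2 higher. The 6.32% of cells with Neurog3 and Btbd17 became 14.7% at 1 read of each. The Neurog3 share in Gcg-high Neurod1OE cells of set 2, 25.7%, became 9.73% at 10 CPM, 16.96% thinned, 42.6% in Gm12338-high and 13.6% in Gm12338-low cells, and the 20.8% of cells labelled Ngn3KO became 6.93%, 18.1% thinned, so that the order of the genotypes turned at equal depth, 33.02% (Gm12338-high) and 7.29% (Gm12338-low). The count of 7 members higher with neither than in Gcg-high cells was 7 or 8 in the alternatives run, which were chosen after seeing the data. Female and Gm12338-low cells alone, and set 3 Gcg-high cells or cells with neither between genotypes, were not run because a side had fewer than 10 cells. Except where a smaller set of cells shows it, the cause of these changes was not tested. Neurod2 and Neurog3 are limited by their few reads.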
